A study of Mus musculus with 5 samples.

Results

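The genes described here are the Wnt ligands, their Frizzled receptors and the modulators of Wnt signalling. They were taken as every gene whose probe carried a RefSeq accession of a mouse symbol starting with Wnt or Fzd and a digit, of Dkk1 to Dkk4, of the Sfrp family, or of Axin2, Lef1, Tcf7, Lrp5 or Lrp6. This gave 40 genes with 52 probes, of 18327 named genes with 26888 probes on the array. They comprised 19 ligands, 10 receptors, 8 secreted antagonists and 3 nuclear or feedback genes. The co-receptor genes Lrp5 and Lrp6 and the transcript Fzd10os had no probe that could be named in this way, so Lrp5 and Lrp6 are not described here.

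RNA was measured on 5 arrays, 1 for each of 5 cell populations. ES was the mouse embryonic stem cell line E14, Hepa1-6 a mouse hepatoma line, and EHe a hybrid line made by fusing these lines. EHeD7 and EHeD14 were EHe cells differentiated in culture for 7 and 14 days. According to the methods, the stem cells carried hygromycin resistance and a red fluorescent protein and the cancer cells neomycin resistance and a green one, and hybrids made with polyethylene glycol were picked as colonies after selection with both drugs. EHe therefore stands for near-tetraploid cells that lived through selection and passaging, and not for all fusion products. ES and EHe were grown in serum replacement with a little serum and leukemia inhibitory factor. The sample labels describe differentiation as a monolayer on gelatin in a serum-containing medium rich in glucose, of the kind in which Hepa1-6 was also kept, whereas the methods describe embryoid bodies in another medium. Medium, loss of the inhibitory factor and differentiation therefore changed together and cannot be told apart. Hepa1-6 was hybridized on a different slide from the other arrays, so the slide and the line cannot be told apart either. No condition had a replicate, and no difference below has a replicate check or a p-value.

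Wnt proteins are secreted lipid-modified ligands that bind Frizzled receptors together with the co-receptors Lrp5 and Lrp6. In the canonical branch this stabilises beta-catenin, which enters the nucleus and activates genes through Tcf and Lef factors, while other branches act on cell polarity and calcium. Dkk proteins block the co-receptors and Sfrp proteins bind Wnt ligands, and in embryonic stem cells and the early embryo the pathway is known for its part in self-renewal and in forming the primitive streak.

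Levels are log2 processed signals minus the 75th percentile of the same array, so that 0 is the 75th percentile. A probe is called detected where the scanner software called it well above background. Where a probe was detected on only 1 of the 2 arrays compared, the other was set to the lowest detected signal of its array, or to its own signal if higher, and the fold is given as at least that value. A gene is called higher or lower when it was past 3-fold with the brighter array detected. In these bulk samples, fewer cells of a kind and less RNA per cell cannot be told apart.

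The labels were checked against marker genes. All 7 pluripotency markers measured were detected in ES, EHe, EHeD7 and EHeD14, and 2 of 7, Klf4 and Dppa5a, in Hepa1-6. Their summed signal, in multiples of the array's 75th percentile, was 339 in ES, 23.6 in Hepa1-6, 393 in EHe, 239 in EHeD7 and 134 in EHeD14. The brightest was Dppa5a on every array except Hepa1-6, where it was Klf4, and it made up most of the sum in EHeD7 and EHeD14. Of the 7, Klf4, Esrrb, Zfp42 and Sox2 were lower than in EHe, by 17.3-fold, 12.6-fold, 8.36-fold and 3.47-fold in EHeD7 and by 41.9-fold, 116-fold, 17.0-fold and 4.49-fold in EHeD14. Pou5f1, Tdgf1 and Dppa5a were within 3-fold of EHe at each day. Of 7 hepatocyte markers, 4 were detected in Hepa1-6, with a summed signal of 178 and Afp the brightest. There the plasma protein genes Ttr, Apoa1 and Fga were not well above background. The sum was at most 0.214 on the other arrays, and Alb was detected in Hepa1-6 only. EHe thus carried stem cell markers without detected hepatocyte markers, and 3 of the 7 hepatocyte probes were not well above background in Hepa1-6.

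Detection of the 40 genes differed between the arrays. In ES 29 were detected, against 75.9% of all named genes, and in EHe 26, against 70.3%. EHeD7 had 34, against 79.4%, and EHeD14 had 33, against 76.5%. Hepa1-6 had 19, against 65.5%. Over all arrays 37 genes, or 92.5% against 84.3% of all named genes, were detected at least on 1 array. On all 5 arrays 15 were detected, or 37.5% against 59.6%, a share below that of all named genes, and no filter on low values was applied to the counts below. Dkk2, Dkk4 and Wnt2b were detected on none. The lowest detected signal itself differed, from -6.16 in EHeD7 to -4.84 in EHe, so a dim gene could be missed in EHe at a level at which it was detected in EHeD7.

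The first question was what happened to these genes when the hybrid was differentiated. In EHeD7 against EHe, 15 of the 40 were higher and 1 was lower, where 5.64% of all named genes were higher and 3.45% lower. The median log2 difference was 0.71 over the 40 and 0 over all named genes. In EHeD14 against EHe, 11 were higher and 2 lower, where 5.67% and 3.71% of all named genes were, with medians of 0.65 and 0. The day 7 and day 14 comparisons share the EHe array and are not independent. Between them, EHeD14 against EHeD7, 2 members were higher and 0 lower, where 0.415% and 0.54% of all named genes were, and the median was -0.11. Of the 19 ligands, 9 were higher and 0 lower at day 7, and 8 higher and 0 lower at day 14. No member past 3-fold turned in sign under any of 6 other ways of treating the values. For a fold given as a bound this could not happen, except with dim values as measured, because bounds stop at 0. Only 6 of the 15 higher at day 7 and 5 of the 11 higher at day 14 passed 3-fold in each of the 6. In at least 1 of them Wnt2 was also called higher and Fzd5 lower at day 7, and Axin2, Wnt2 and Wnt8b higher and Sfrp2 lower at day 14.

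Wnt3, a canonical ligand needed for the primitive streak, had the largest rise among the members. It lay at -6.40 in ES, -7.34 in Hepa1-6, -6.10 in EHe, 1.95 in EHeD7 and 1.58 in EHeD14. It was detected only in the differentiated hybrids, at least 111-fold higher in EHeD7 and at least 85.2-fold higher in EHeD14 than in EHe. A second probe of the gene gave log2 differences of at least 6.05 and 5.71. The lowest log2 differences of Wnt3 in the 6 other treatments were 5.07 and 4.87, against 6.79 and 6.41 here. Wnt8a, a canonical ligand of the early embryo, lay at -5.74 in ES, -7.39 in Hepa1-6, -6.81 in EHe, -1.10 in EHeD7 and -1.93 in EHeD14. It too was detected in the differentiated hybrids only, at least 13.4-fold and at least 7.52-fold above EHe.

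Wnt11, a ligand known mainly for non-canonical signalling and convergent extension, was at -3.00 in ES, -4.62 in Hepa1-6, -3.16 in EHe, -0.48 in EHeD7 and -0.07 in EHeD14. It was detected on all arrays, 6.38-fold higher in EHeD7 and 8.49-fold higher in EHeD14 than in EHe, and lowest in Hepa1-6, 3.07-fold below ES. Wnt4, which acts in kidney and gonad development, was at -4.17 in ES, -5.91 in Hepa1-6, -4.50 in EHe, -1.77 in EHeD7 and -1.85 in EHeD14, and was not detected in Hepa1-6. Against EHe it was 6.61-fold higher in EHeD7 and 6.26-fold higher in EHeD14. Wnt5b, another ligand with non-canonical activity, stood at -2.38 in ES, -4.13 in Hepa1-6, -2.07 in EHe, -0.11 in EHeD7 and -0.24 in EHeD14. The differentiated hybrids were high and Hepa1-6 low, with 3.89-fold over EHe at day 7 and 3.57-fold at day 14, the latter under 3-fold after normexp background correction. Hepa1-6 was 3.36-fold below ES, and this and the Wnt11 difference between the parents were under 3-fold with normexp, quantile normalization or median centring, and that of Wnt5b also as the mean of its probes.

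Wnt7a, a ligand of limb and neural patterning, was at -6.65 in ES, -6.66 in Hepa1-6, -3.61 in EHe, -1.47 in EHeD7 and -1.46 in EHeD14. It was detected in the hybrids only, neither parent line being well above background. It was at least 3.50-fold higher in EHe than in ES, then 4.42-fold higher in EHeD7 and 4.45-fold higher in EHeD14 than in EHe. All of these fell under 3-fold with normexp, and the first also when 1 detection limit was used for all arrays. Wnt9a, which acts in joint and blood stem cell development, stood at -3.54 in ES, -7.58 in Hepa1-6, -3.72 in EHe, -1.57 in EHeD7 and -1.68 in EHeD14. The differentiated hybrids were high, 4.46-fold and 4.13-fold over EHe, and Hepa1-6 was not detected, at least 3.37-fold below ES. With normexp, or as the mean of its probes, Wnt9a was under 3-fold at each day, and the difference between the parents was under 3-fold in 5 of the 6 other treatments.

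Wnt6 and Wnt10a, neighbours among the protein-coding genes of chromosome 1, were brightest in Hepa1-6. Wnt3a and Wnt9a, Wnt9b and Wnt3, and Wnt10b and Wnt1 are neighbours too, and whether neighbours share a pattern was not tested. Wnt6, an epithelial ligand, was at -2.34 in ES, 1.48 in Hepa1-6, -3.89 in EHe, -1.48 in EHeD7 and -1.81 in EHeD14. Wnt10a, which acts in tooth and skin development, was at -4.44 in ES, 2.85 in Hepa1-6, -4.80 in EHe, -2.27 in EHeD7 and -3.31 in EHeD14, and was not detected in EHe. Wnt6 was 14.1-fold and Wnt10a 157-fold higher in Hepa1-6 than in ES. Against EHe, Wnt6 was 5.31-fold higher at day 7 and 4.22-fold at day 14, and Wnt10a at least 5.78-fold at day 7 and at least 2.81-fold at day 14, the last short of the 3-fold used here. With normexp Wnt10a was under 3-fold at day 7 and Wnt6 at day 14. Both remained below Hepa1-6 in EHeD14, Wnt6 by 9.78-fold and Wnt10a by 71.8-fold.

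Other ligands separated the parent lines. Wnt5a, the main non-canonical ligand, was at -6.84 in ES, -3.11 in Hepa1-6, -6.70 in EHe, -7.02 in EHeD7 and -5.78 in EHeD14. It was detected in Hepa1-6 only, at least 4.93-fold over ES, a difference under 3-fold with normexp. Wnt7b, which acts in lung and placenta, was at -1.43 in ES, -3.45 in Hepa1-6, -2.21 in EHe, -1.52 in EHeD7 and -1.53 in EHeD14. It was lowest in Hepa1-6, 4.05-fold below ES. Wnt16 was at -3.65 in ES, -5.22 in EHeD7 and, not detected, at -6.40 in EHe, -5.69 in EHeD14 and -7.42 in Hepa1-6, at least 3.13-fold lower in Hepa1-6 than in ES. Both of these falls in Hepa1-6 were under 3-fold with normexp, quantile normalization or median centring, and that of Wnt16 also with 1 detection limit.

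**Figure D1:**
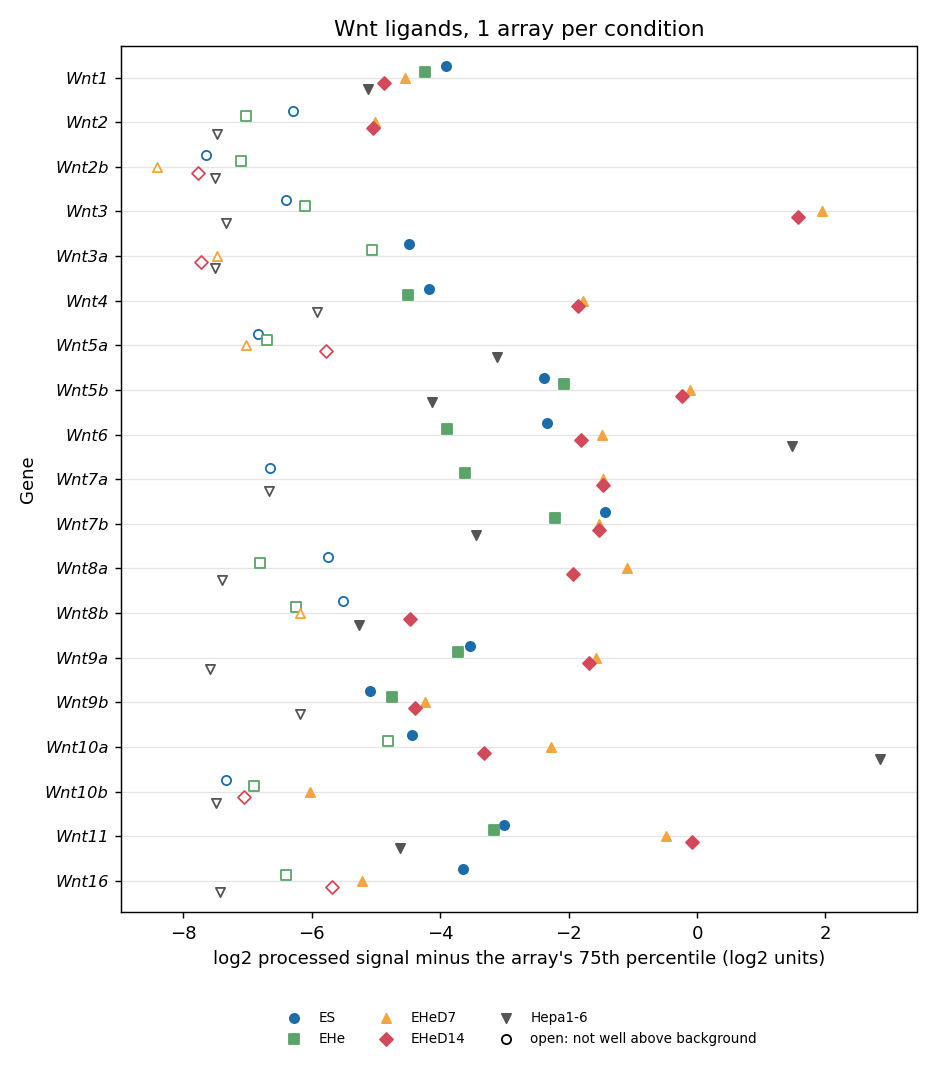
Levels of the 19 Wnt ligands on the 5 arrays, as log2 processed signal minus the array's 75th percentile, with 1 point per array, filled where well above background and open where not. Wnt3 lies at 1.95 in EHeD7 and 1.58 in EHeD14 and is not detected elsewhere, and Wnt10a is brightest in Hepa1-6 at 2.85.

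The remaining 7 ligands were dim. Wnt1, detected on all arrays, ranged from -5.12 in Hepa1-6 to -3.90 in ES, and Wnt9b from -6.18, not detected, in Hepa1-6 to -4.23 in EHeD7. Wnt3a was detected in ES only, at -4.48. Wnt2 was detected at -5.02 in EHeD7 and -5.05 in EHeD14, below the limit of EHe, so no fold is given. Wnt8b was detected at -4.47 in EHeD14 and -5.26 in Hepa1-6, at least 3.21-fold higher in EHeD14 than in EHeD7, a difference under 3-fold with normexp or 1 detection limit. Wnt10b was detected in EHeD7 only, at -6.03.

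All 10 Frizzled receptors were detected in ES and in each hybrid, and 7 in Hepa1-6. At day 7, 2 of 10 were higher and 0 lower than in EHe, and at day 14, 1 was higher and 1 lower. This was 20.0% and then 10.0% higher, against 5.64% and 5.67% of all named genes, and 10.0% lower at day 14, against 3.71%. Fzd2 was at 0.39 in ES, -7.57 in Hepa1-6, 0.85 in EHe, 2.63 in EHeD7 and 2.76 in EHeD14. It was high in the differentiated hybrids, 3.45-fold and 3.77-fold over EHe, and not detected in Hepa1-6, at least 51.3-fold below ES. As the mean of its probes Fzd2 was under 3-fold at each day, the second probe being detected on no array. Fzd1 was at -3.28 in ES, -1.42 in Hepa1-6, -2.52 in EHe, -0.83 in EHeD7 and -1.70 in EHeD14. It was 3.21-fold higher in EHeD7 than in EHe, 1.75-fold in EHeD14, and 3.61-fold higher in Hepa1-6 than in ES, the day 7 value being under 3-fold with normexp or median centring and the last with normexp.

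Fzd5, a receptor of yolk sac and eye development, was the receptor lower on differentiation. It was at -0.59 in ES, -3.76 in Hepa1-6, -1.63 in EHe, -3.08 in EHeD7 and -3.29 in EHeD14, highest in ES and lowest in Hepa1-6 on this probe. The second probe was highest in EHe, at -1.29, and lowest in the differentiated hybrids, at -4.09 in each. Against EHe it was 2.72-fold lower in EHeD7 and 3.16-fold lower in EHeD14, and the second probe gave log2 differences of -2.80 at each day. With normexp the day 14 difference was under 3-fold, and with quantile normalization, median centring or the mean of the probes the day 7 difference passed it. In Hepa1-6 it was 9.06-fold lower than in ES, while the second probe gave -0.62.

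Between the parent lines the receptors divided. Fzd4, a receptor for Norrin as well as Wnt ligands, was at -2.57 in ES, -0.03 in Hepa1-6, -2.20 in EHe, -1.30 in EHeD7 and -1.25 in EHeD14. Fzd6, which acts in hair and tissue polarity, was at -2.30 in ES, 1.24 in Hepa1-6, -1.09 in EHe, -0.35 in EHeD7 and -0.46 in EHeD14. They were highest in Hepa1-6, 5.79-fold and 11.6-fold over ES, with the hybrids between the parents. Fzd3, a receptor of axon guidance, was at -2.71 in ES, -7.53 in Hepa1-6, -1.15 in EHe, -1.48 in EHeD7 and -0.63 in EHeD14. Fzd9 was at -1.03 in ES, -7.44 in Hepa1-6, -0.72 in EHe, -0.04 in EHeD7 and -0.43 in EHeD14. These were not detected in Hepa1-6, at least 6.00-fold and at least 19.2-fold below ES. Fzd7, the receptor best known in pluripotent cells, was at 0.81 in ES, -0.98 in Hepa1-6, -0.14 in EHe, 0.65 in EHeD7 and 0.66 in EHeD14. It was lowest in Hepa1-6, 3.46-fold below ES, a value under 3-fold with normexp, median centring or the mean of its probes. Fzd8 ranged from -4.52 in EHe to -2.78 in Hepa1-6 and Fzd10 from 0.62 in EHe to 2.58 in Hepa1-6.

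Of the 8 antagonists, 2 were higher and 1 lower than in EHe at day 7, and likewise 2 and 1 at day 14. This was 25.0% higher and 12.5% lower at each day, against 5.64% and 3.45% of all named genes at day 7 and 5.67% and 3.71% at day 14. Dkk1, which blocks the co-receptors and is itself a Wnt target, was at -1.84 in ES, -7.47 in Hepa1-6, -7.10 in EHe, -2.84 in EHeD7 and -1.14 in EHeD14. It was detected in ES and the differentiated hybrids and not in EHe or Hepa1-6. EHe was at least 7.99-fold below ES, and Dkk1 was then at least 3.99-fold higher in EHeD7 and at least 13.0-fold higher in EHeD14 than in EHe, and 3.26-fold higher at day 14 than at day 7. The day 7 value and the difference between the days were under 3-fold with normexp or as the mean of the probes. On the second Dkk1 probe EHe was at least 1.37-fold below ES. That probe gave at least 1.55-fold and at least 3.44-fold over EHe at day 7 and day 14, and 2.21-fold between the days. Dkk3, a divergent member of the family, was at -2.29 in ES, -7.43 in Hepa1-6, -3.62 in EHe, -1.61 in EHeD7 and -1.73 in EHeD14. It was 4.02-fold and 3.69-fold higher than in EHe, each under 3-fold with normexp, and was not detected in Hepa1-6, at least 8.04-fold below ES.

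Sfrp1, a soluble Wnt-binding protein, was the antagonist lower on differentiation. It was at 1.39 in ES, -7.54 in Hepa1-6, 1.54 in EHe, -0.66 in EHeD7 and -0.48 in EHeD14. Compared with EHe it was 4.58-fold lower in EHeD7 and 4.06-fold lower in EHeD14, past 3-fold in all 6 other treatments. The related Sfrp2 was at 1.58 in ES, -7.53 in Hepa1-6, 2.61 in EHe, 1.91 in EHeD7 and 1.13 in EHeD14, and was brightest in EHe. Sfrp4 was at -1.35 in ES, -7.24 in Hepa1-6, -1.28 in EHe, -1.50 in EHeD7 and -1.77 in EHeD14. Sfrp5 was at -2.93 in ES, -5.10 in Hepa1-6, -3.39 in EHe, -3.34 in EHeD7 and -3.48 in EHeD14. All 4 were lower in Hepa1-6 than in ES, Sfrp1 at least 102-fold, Sfrp2 at least 117-fold, Sfrp4 at least 15.4-fold and Sfrp5 4.50-fold, the last under 3-fold with normexp, quantile normalization or median centring. The second Sfrp1 probe gave at least 3.92-fold. The smallest log2 difference of Sfrp1 in the 6 other treatments was -4.32, against -6.68 here. Sfrp5 was the only antagonist detected in Hepa1-6.

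Axin2 is a negative regulator and a widely used readout of canonical signalling. It was at -7.33 in ES, -1.35 in Hepa1-6, -5.86 in EHe, -3.13 in EHeD7 and -3.44 in EHeD14. It was not detected in ES or EHe and was brightest in Hepa1-6, at least 16.7-fold over ES. Against EHe it was at least 3.25-fold higher in EHeD7, under 3-fold with normexp, quantile normalization or median centring, and at least 2.62-fold in EHeD14. Lef1, a nuclear partner of beta-catenin, was at -3.69 in ES, -1.94 in Hepa1-6, -3.57 in EHe, -1.79 in EHeD7 and -2.89 in EHeD14. It was high in EHeD7 and Hepa1-6, 3.43-fold over EHe and 3.36-fold over ES, both under 3-fold with normexp, and 1.59-fold over EHe in EHeD14. Tcf7, which encodes Tcf1, was at 1.37 in ES, 2.32 in Hepa1-6, 0.74 in EHe, 1.99 in EHeD7 and 1.77 in EHeD14, with none of the comparisons past 3-fold except Hepa1-6 against ES when arrays were centred on their median.

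**Figure D2:**
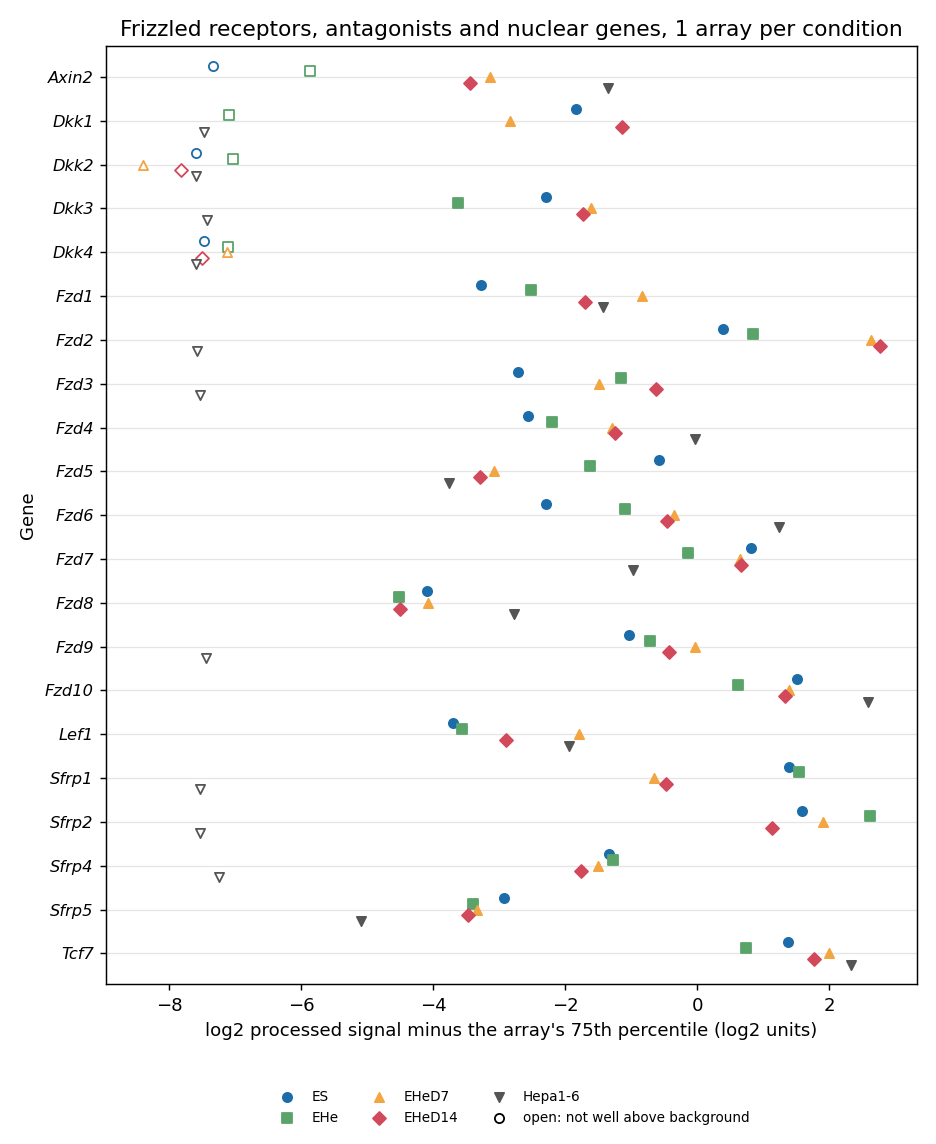
Levels of the 10 Frizzled receptors, 8 antagonists and 3 nuclear or feedback genes on the 5 arrays, as log2 processed signal minus the array's 75th percentile, with 1 point per array, filled where well above background and open where not. Fzd2 lies at -7.57 and Sfrp2 at -7.53 in Hepa1-6, where neither is detected, and Axin2 is brightest in Hepa1-6 at -1.35.

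The next question was how the hybrid and its parents differed. In EHe against ES, 1 of the 40 was higher, Wnt7a, and 1 was lower, Dkk1, where 1.99% of all named genes were higher and 2.71% lower, with a median of 0 in each. In Hepa1-6 against ES, 8 were higher and 16 lower, where 11.1% and 17.6% of all named genes were. The median was -0.10 over the 40 and 0 over all named genes. Over the 15 members detected on all arrays it turned positive, and with dim values as measured it was more negative. Requiring detection on all arrays drops every member not detected in Hepa1-6, among them Fzd2, Sfrp1 and Sfrp2. It also drops Axin2 and Wnt5a, which were higher in Hepa1-6 and not detected in ES. The positive median therefore cannot show the direction over the 40. When arrays were centred on their median, 11 were higher and 9 lower, where 18.1% and 10.2% of all named genes were. Fzd8, Fzd10 and Tcf7 were added to the higher ones. The share of higher calls among all named genes past 3-fold moved from 38.8% to 64.0%. In EHeD14 against Hepa1-6, 18 were higher and 6 lower, where 14.7% and 10.3% of all named genes were, with medians of 0.63 and 0. With arrays centred on their median the share of higher calls among all named genes past 3-fold moved from 58.8% to 32.7%. The median of the 40 was then 0, as with quantile normalization. Over the 15 members detected on all arrays it was -0.28, again without the members not detected in Hepa1-6. Fzd2 was at least 266-fold, Wnt3 at least 117-fold and Sfrp2 at least 85.9-fold higher in EHeD14, while Wnt10a, Wnt6, Wnt5a, Axin2, Fzd8 and Fzd6 were lower. With normexp only Wnt10a and Wnt6 of these 6 lower genes were past 3-fold. For the higher genes, the lowest log2 differences in the 6 other treatments were 3.27 for Fzd2, 4.92 for Wnt3 and 5.12 for Sfrp2. The bounds given above were 8.05, 6.87 and 6.42 in log2.

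Markers of other cell types also changed when the hybrid was differentiated, and not all genes of a list changed in the same direction. Of 6 mesoderm markers, 1 was detected in EHe and 3 in EHeD7 and EHeD14. Their summed signal was 0.202 in ES, 0.0407 in Hepa1-6, 0.179 in EHe, 4.67 in EHeD7 and 4.86 in EHeD14. T was the brightest in the differentiated hybrids and Eomes elsewhere, and Mixl1, Kdr and Foxf1 were not detected in EHeD7 or EHeD14. The 5 neural ectoderm markers summed to 6.92 in ES, 0.180 in Hepa1-6, 5.04 in EHe, 24.8 in EHeD7 and 25.4 in EHeD14. Nes was the brightest except in ES, where Otx2 was, and Otx2 was 16.2-fold higher in EHeD7 than in EHe. Pax6 was not detected in the differentiated hybrids and was at least 61.3-fold lower in EHeD7 and at least 40.4-fold lower in EHeD14 than in EHe.

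The 6 trophoblast markers summed to 17.1 in ES, 4.26 in Hepa1-6, 10.0 in EHe, 5.49 in EHeD7 and 5.96 in EHeD14. Tfap2c was the brightest in ES and EHe and Krt7 elsewhere, and Elf5 was detected in EHeD7 only. The lower sum in EHeD7 was that of Tfap2c, 14.0-fold below EHe, while Krt7 was 45.0-fold, Hand1 at least 27.5-fold and Eomes 16.0-fold higher. The 5 endoderm markers summed to 3.72 in ES, 10.6 in Hepa1-6, 0.386 in EHe, 0.578 in EHeD7 and 1.42 in EHeD14. Gata6 was the brightest except in Hepa1-6, where Foxa2 was, and Foxa2 and Cxcr4 were not detected in EHe. Against EHe, 0 were higher and 0 lower at day 7, where 5.64% and 3.45% of all named genes were. At day 14, 3 were higher and 0 lower, where 5.67% and 3.71% of all named genes were. These 3 were Foxa2, at least 5.30-fold, Sox17, 4.69-fold, and Gata6, 3.64-fold. The 8 fibroblast markers summed to 1.77 in ES, 177 in Hepa1-6, 1.01 in EHe, 4.89 in EHeD7 and 5.44 in EHeD14. Dcn made up nearly all of the sum in Hepa1-6, where 5 of the 8 were not detected. There 4 were lower and 1 higher than in ES, beside 17.6% and 11.1% of all named genes. Thy1 was the brightest on the other arrays. In each differentiated hybrid 4 of the 8 were higher than in EHe and 0 lower, beside the shares of all named genes given for the endoderm markers. Dcn and Lum were not detected there. The higher genes at day 7 were Col1a1, 22.1-fold, Pdgfrb, 6.92-fold, Col1a2, 5.31-fold, and Thy1, 3.50-fold. The part that a changed mix of cells had in the Wnt results was not tested.

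Other genes of the pathway were followed in lists, beside the 5.64% of all named genes higher and 3.45% lower at day 7, and 5.67% and 3.71% at day 14. Of 35 cytoplasmic and nuclear components of the canonical branch, 0 were higher and 3 lower in EHeD7 than in EHe, and 0 and 1 in EHeD14, or 8.57% and then 2.86% lower, with medians of -0.18 and -0.25. Frat1, an inhibitor of the kinase Gsk3, was the gene lower at day 14, by 3.43-fold. Ctnnb1, which encodes beta-catenin, was at 4.22 in ES, 3.94 in Hepa1-6, 3.87 in EHe, 4.01 in EHeD7 and 3.79 in EHeD14. Its transcript level was thus close on all arrays, and the arrays do not measure the protein.

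Of 26 genes of Wnt secretion and the cell surface, 4 were higher and 1 lower in EHeD7, and 4 and 2 in EHeD14. This was 15.4% higher at each day, against 5.64% and 5.67% of all named genes, and 3.85% and 7.69% lower, against 3.45% and 3.71%, with medians of 0 and 0.04. Wls, the carrier that brings Wnt proteins to the surface, was at -1.70 in ES, -5.70 in Hepa1-6, -1.14 in EHe, 1.55 in EHeD7 and 2.15 in EHeD14. It was high in the differentiated hybrids, 6.45-fold and 9.78-fold over EHe, and not detected in Hepa1-6. Porcn, the enzyme that attaches the lipid to Wnt proteins, was at 1.33 in ES, -2.44 in Hepa1-6, 2.22 in EHe, 0.94 in EHeD7 and -0.51 in EHeD14, and was 6.63-fold lower in EHeD14 than in EHe. Notum, which removes that lipid, was 11.0-fold lower than in EHe at day 7 and 13.4-fold at day 14. Rnf43, a ubiquitin ligase that removes Frizzled receptors, was at least 9.22-fold higher at day 14, the proteoglycan gene Gpc4 5.20-fold and the Dkk receptor gene Kremen2 at least 4.92-fold. The carrier and the lipid-attaching enzyme thus moved in opposite directions at day 14.

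Of 21 genes of the non-canonical branches, 3 were higher and 0 lower in EHeD7, and 3 and 0 in EHeD14, or 14.3% higher at each day against 5.64% and 5.67% of all named genes. At day 14 these were Camk2d, a calcium-dependent kinase, 9.82-fold over EHe, the planar polarity gene Prickle1 at 3.47-fold and the co-receptor gene Ptk7 at 3.21-fold. The medians were 0.01 and 0.05.

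Of 31 genes known as Wnt targets, 11 were higher and 4 lower in EHeD7, and 10 and 4 in EHeD14, with medians of 0.71 and 0.67. This was 35.5% higher at day 7 and 32.3% at day 14, against 5.64% and 5.67% of all named genes, and 12.9% lower at each day, against 3.45% and 3.71%. The list holds 4 of the genes described above and 5 of the other pathway lists. T, the primitive streak and mesoderm factor Brachyury, was at -4.42 in ES, -7.49 in Hepa1-6, -6.17 in EHe, 1.62 in EHeD7 and 1.71 in EHeD14. It was not detected in EHe and was at least 87.8-fold higher in EHeD7 and at least 93.6-fold higher in EHeD14. Sp5, a transcription factor gene, was at -4.63 in ES, 3.63 in Hepa1-6, -3.32 in EHe, 1.67 in EHeD7 and 1.57 in EHeD14, 31.8-fold and 29.7-fold over EHe. The growth factor gene Fgf8 was 8.76-fold higher at day 7 and 18.6-fold at day 14, and Dkk1, described above, came next at day 14. Genes lower at day 14 were Gbx2, at least 208-fold, Tbx3, 27.3-fold, and Snai2, 4.12-fold, besides Notum. The list thus moved in both directions.

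Promoter sequences are shown to describe the start regions of some of the genes above. RefSeq windows on build GRCm38.p6, given as 250 bases before to 50 bases from a start, were matched for 28 of the 40 genes. Of their 35 windows, 16 lay at the outermost start of the gene and 19 elsewhere. Of those printed, the windows of Dkk1 and Wnt3 lay at the outermost start and those of Wnt11 and Axin2 did not. The letters searched were CTTTGA, a form of the core bound by Tcf and Lef factors, and their reverse complement TCAAAG. Other forms of the core were not searched. The letters were found in at least 1 window of 5 of these 28 genes, namely Dkk1, Lef1, Fzd1, Wnt5b and Wnt11. Counted by window this was 5 of 35, or 14.3%, against 16.0% of all 32851 windows, so the share was near the background. A match describes the letters only and is not a binding site. The capitals below mark these letters on either strand. Dkk1 and Wnt11 are shown as genes with a match, the latter by the window that holds it. Wnt3 and Axin2 are shown as the largest rise and the feedback gene. Their windows hold neither CTTTGA nor TCAAAG, which does not mean that they lack other forms of the core. The windows shown lie at chr19:30549447-30549746 on the minus strand for Dkk1, and on the plus strand at chr7:98834862-98835161 for Wnt11, chr11:103773925-103774224 for Wnt3 and chr11:108920099-108920398 for Axin2.
Dkk1: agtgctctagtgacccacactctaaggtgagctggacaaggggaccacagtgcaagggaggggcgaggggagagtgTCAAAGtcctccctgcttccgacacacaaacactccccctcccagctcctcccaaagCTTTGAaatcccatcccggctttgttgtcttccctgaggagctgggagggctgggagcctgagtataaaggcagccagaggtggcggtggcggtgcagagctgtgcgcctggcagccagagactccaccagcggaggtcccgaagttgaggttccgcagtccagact
Wnt11: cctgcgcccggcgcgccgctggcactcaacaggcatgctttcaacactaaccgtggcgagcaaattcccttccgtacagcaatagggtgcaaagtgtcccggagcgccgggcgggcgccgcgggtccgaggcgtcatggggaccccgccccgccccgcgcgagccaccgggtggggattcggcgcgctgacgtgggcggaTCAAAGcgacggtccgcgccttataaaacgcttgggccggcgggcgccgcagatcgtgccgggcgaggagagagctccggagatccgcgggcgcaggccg
Wnt3: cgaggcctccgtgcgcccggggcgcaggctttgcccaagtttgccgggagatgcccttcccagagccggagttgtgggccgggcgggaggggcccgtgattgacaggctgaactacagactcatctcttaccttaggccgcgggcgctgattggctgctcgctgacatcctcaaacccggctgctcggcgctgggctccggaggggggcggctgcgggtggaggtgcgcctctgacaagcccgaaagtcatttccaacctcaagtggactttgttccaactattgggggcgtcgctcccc
Axin2: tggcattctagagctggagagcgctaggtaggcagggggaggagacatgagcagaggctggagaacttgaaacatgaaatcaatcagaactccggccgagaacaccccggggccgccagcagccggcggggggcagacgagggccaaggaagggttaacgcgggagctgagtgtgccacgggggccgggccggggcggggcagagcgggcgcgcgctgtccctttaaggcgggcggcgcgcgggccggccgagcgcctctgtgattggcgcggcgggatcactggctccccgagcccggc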

How the data were processed

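For each array the authors deposited an output of Agilent Feature Extraction 10.7.3.1, in which the processed signal is an intensity with background removed and no normalization between arrays. The deposited series table held the same intensity values. The dye is Cy3 by the labels and Cy5 by the methods. After control spots were dropped, the 75th percentile of the array's log2 signals, outlier spots included, was subtracted. Outlier spots were then dropped and repeated spots averaged. Of 41174 probes, 26888 were named through RefSeq accessions and 14286 were left unnamed. A gene was read from the probe well above background on the most arrays, ties going to the brighter. The number of arrays limits the precision. The rule for members given on every array was a difference past 3-fold at day 7 or day 14 against EHe, in EHe against ES or in Hepa1-6 against ES, with Axin2, Lef1, Tcf7 and Dkk1 always given, and 29 of the 40 met it. Pathway genes were named by the largest changes at day 14, up to 4 in each direction, and Ctnnb1 was named outside this rule, with its values known. The members and lists were chosen with earlier results of these data known. The calling was checked on simulated data, whose results are not given here. Alternatives were normexp with an offset of 50 on the median signal, quantile normalization, median centring, dim values as measured, filters on dim genes, the mean of a gene's probes, the series table, a 2-fold threshold, detection by any probe, outlier spots kept, and 1 detection limit for all arrays, the last chosen after seeing the data. Versions were R 4.3.3, limma 3.58.1, Python 3.11.15, pandas 2.3.3, numpy 2.4.6 and matplotlib 3.10.9.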

Additional observations from a re-analysis of the deposited data

How the results depend on the processing

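Counts of members past 3-fold, medians and detection counts were recomputed under each alternative. Of 189 values, 101 counts stayed within 1.5 times of the reported count and 38 medians within 0.112 log2, the median SD between repeated spots, while 34 counts and 15 medians moved further and 1 median changed sign. The cause was not tested except where stated. With 1 array for each condition, no paired analysis was possible.

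Normexp changed the input signal, the background method and the offset together, and which of these moved the values was not tested. With it, 7 were higher in EHeD7 against EHe, where 3.7% of all named genes were. In EHeD14 against EHe, 6 were higher and 1 lower, where 3.79% and 2.22% of all named genes were. In EHeD14 against EHeD7, 0 were higher, beside 0.0764% of all named genes, and in EHe against ES, 0, beside 0.769%. In Hepa1-6 against ES, 5 were higher and 9 lower, beside 8.72% and 12.2%. In EHeD14 against Hepa1-6, 2 were lower, beside 8.2%. The medians of EHeD14 were 0.52 against EHe and 0.21 against Hepa1-6. Quantile normalization gave 2 lower in EHeD7 against EHe, 2 higher in EHe against ES and 10 lower in Hepa1-6 against ES. The shares of all named genes called in these ways were 3.9%, 2.38% and 13.2%. The median of the members in EHeD14 against Hepa1-6 was 0. Median centring gave 2 lower in EHeD7 against EHe, 2 higher in EHe against ES and 9 lower in Hepa1-6 against ES. The matching shares of all named genes were 4.15%, 2.48% and 10.2%. The medians of the members were 0.53 in EHeD7 and 0.50 in EHeD14 against EHe and 0 in EHeD14 against Hepa1-6. Median centring also moved the median of all genes detected on both arrays, by -0.18 and -0.16 in EHeD7 and EHeD14 against EHe, 0.11 in EHe against ES, 0.77 in Hepa1-6 against ES and -0.81 in EHeD14 against Hepa1-6, and quantile normalization moved it by 0.12 in Hepa1-6 against ES. The share of higher calls among all genes past 3-fold went from 42.3% to 53.2% in EHe against ES and from 58.8% to 32.7% in EHeD14 against Hepa1-6 with median centring, and from 43.4% to 30.4% in EHeD14 against EHeD7 with normexp, or to 32.3% with only genes detected on all 5 arrays.

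With dim values as measured, 2 were lower in EHe against ES, where 4.75% of all named genes were. The medians of the members were 0.83 in EHeD7 against EHe, -1.20 in Hepa1-6 against ES and 1.63 in EHeD14 against Hepa1-6. The mean of a gene's probes gave 2 lower in EHeD7 against EHe and 1 higher in EHeD14 against EHeD7. The matching shares of all named genes were 3.28% and 0.398%. The median of the members in EHeD14 against Hepa1-6 was 0.51. The 2-fold threshold gave 4 higher and 5 lower in EHe against ES, where 5.65% and 7.75% of all named genes were. It gave 2 lower in each of EHeD14 against EHeD7 and EHeD7 against EHe, where 1.5% and 6.88% were.

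Only 15 members were detected on all 5 arrays, so this filter leaves fewer genes to count. It also drops every member not detected in Hepa1-6, so its medians in comparisons with Hepa1-6 cannot show the direction over the 40. It gave 5 higher and 0 lower in EHeD7 against EHe, 3 and 1 in EHeD14 against EHe, 0 higher in EHeD14 against EHeD7, 0 and 0 in EHe against ES, 5 and 6 in Hepa1-6 against ES, and 5 and 3 in EHeD14 against Hepa1-6. Its medians were -0.43 in EHe against ES and, with the sign turned in both, 0.95 in Hepa1-6 against ES and -0.28 in EHeD14 against Hepa1-6. Over the 40, the median of Hepa1-6 against ES was -0.10. Detection on at least 1 array gave medians of -0.81 in Hepa1-6 against ES and 0.90 in EHeD14 against Hepa1-6. With 1 detection limit for all arrays, chosen after seeing the data, 0 were higher in EHe against ES and 1 in EHeD14 against EHeD7. The matching shares of all named genes were 1.75% and 0.224%. The median of the members was 0.40 in EHeD14 against Hepa1-6. The series table changed no count or median, and detection counts stayed within 1.5 times. A fold against an array without a detected signal is only a bound, and some of these bounds were lower under other treatments.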
